A study of Drosophila melanogaster with 8 samples.

Results

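The larval gut of Drosophila digests protein and starch with enzymes encoded by small gene families, and 39 such genes are described here among the 17473 genes listed in each expression table. The rule that picks them uses the symbol and no measured value, though the families were proposed with earlier results of these data known: 16 Jonah genes (Jon followed by a digit), 11 trypsin genes (symbols ending in Try), 10 maltase genes (Mal-A and Mal-B) and 2 amylase genes (Amy-p and Amy-d). The Jonah genes encode chymotrypsin-like serine proteases, the trypsins cut protein chains after lysine or arginine, amylase cuts starch into maltose and short sugar chains, and the maltases release glucose from these. In larvae these enzymes are made mainly by midgut enterocytes, the absorptive cells of the gut, and are secreted into the gut lumen or held at the cell surface. In flies, dietary sugar and signalling by the TGF-beta ligand Dawdle (daw) are known to act on amylase and maltase transcripts.

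RNA was sequenced from pooled whole larvae at the wandering third-instar (L3) stage, when larvae leave the food, as the study's methods state, in 8 libraries, 2 for each of 4 strains. The WT strain was w1118. The U12Δ/Δ and U6atacΔ/Δ strains carried homozygous CRISPR/Cas9 deletions of the U12 or the U6atac snRNA gene, whose RNAs belong to the minor spliceosome, and the SmnΔ/Δ strain carried a homozygous deletion in Smn, whose product helps to assemble spliceosomal snRNPs. The deletion strains had been backcrossed to WT and kept over balancer chromosomes with GFP, so that homozygous larvae could be picked. The U12Δ/Δ and U6atacΔ/Δ animals die as pupae. The study's methods call the 2 libraries of a strain biological repeats, each from larvae picked at random from vials. The sources used here do not say whether the repeats came from separate cultures, and p-values measure only the spread between them.

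Values are TPM: reads per length of the gene, scaled so that each library sums to 1000000. TPM keeps no read number, so the depth behind a value is unknown and no counting interval was computed. Smn was at 24.7 and 28.3 TPM in the WT libraries, at 4.57 and 0.653 TPM in the SmnΔ/Δ libraries and at 9.57 to 200.3 TPM in the other 4. The U12 snRNA gene was listed at 0 in both U12Δ/Δ libraries and at 0.0724 and 0.454 TPM in WT, and the U6atac snRNA gene was listed at 0 in all 8 libraries, so its value checks no label. Whole larvae mix many tissues, and fewer gut cells and less RNA per gut cell cannot be told apart in such samples. The 4 enterocyte markers (mex1, nub, Myo31DF and GATAe) summed to 72.4 to 754 TPM in the 8 libraries, and none was at 0 in both libraries of a strain. The 6 fat body markers (Fbp1, Fbp2, Lsp1alpha, Lsp1beta, Lsp1gamma and Lsp2) summed to 28353 TPM or more in each WT, U12Δ/Δ and U6atacΔ/Δ library, against 3.89 and 0.507 TPM in the SmnΔ/Δ libraries. The 6 salivary gland markers (glue proteins of wandering larvae) summed to 18.3 to 211173 TPM in those 3 strains and to 1.06 and 0.872 TPM in SmnΔ/Δ. The SmnΔ/Δ libraries stand apart from the other 6 in these fat body and salivary gland markers. Their sums of muscle markers (9465 and 10417 TPM) and enteroendocrine markers (25.2 and 48.8 TPM) lay within the range of the other 6 libraries. In the remaining lists 1 SmnΔ/Δ library lay outside that range. The second was lowest in enterocyte markers (72.4 TPM, against 137 TPM or more) and neuron markers (45.6 TPM, against 76.3 TPM or more). The first was highest in copper cell markers (56.0 TPM, against 47.8 TPM at most). The study's own staging also sets the sequenced SmnΔ/Δ larvae apart from the other strains in developmental stage within L3, so that stage and genotype cannot be told apart in any comparison with SmnΔ/Δ. The study groups the U12Δ/Δ and U6atacΔ/Δ larvae with WT larvae in stage. Their salivary gland sums still differed, with 16212 and 8048 TPM in WT, 643 and 2220 TPM in U6atacΔ/Δ, and 211173 and 18.3 TPM in U12Δ/Δ. No marker sum is adjusted for the shared shifts of genes listed next to each other, described below. In the first U12Δ/Δ library the genes listed around Sgs3, Sgs7 and Sgs8 had median deviations of 3.54, 3.54 and 2.73 (log2). How much of the 211173 TPM goes with that shift was not tested. The fat body sums of both strains overlapped those of WT. Whether stage bears on the comparisons of U12Δ/Δ or U6atacΔ/Δ with WT was not tested.

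The members sit in tight genomic groups (dm6 coordinates). All 11 trypsins lie within 20698 bp on chromosome arm 2R (11336840 to 11357537), the 8 Mal-A genes within 24298 bp on 2R (8449664 to 8473961), and the 2 amylases within 7734 bp on 2R (17118636 to 17126369). The Jonah genes lie on 3L (7 genes), 3R (5), 2L (3) and 2R (1), most of them in groups of 2 to 4, and the Mal-B genes lie side by side on 2L. Their gene models are short and poor in introns: 24 of the 38 members tested below had no intron in the Ensembl annotation (63.2%), against 12.1% of the 10634 other protein-coding genes tested. All 11 trypsins, both amylases and 11 of the 16 Jonah genes lack introns, and the maltases have 2 to 6. The longest intron of any member is 353 bp. The symbol rule did not use any of this.

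Amy-p and Amy-d, gammaTry and deltaTry, and Jon99Cii and Jon99Ciii are near-identical copies, so their separate values are uncertain where reads could be split between copies. Mal-B1, Mal-B2, Mal-A1, Mal-A8, deltaTry and Jon44E overlap the span of a gene on the opposite strand. The library kit does not mark strand, so reads from any shared exon sequence cannot be told from those of the partner. How much exon sequence is shared was not measured.

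Together the 39 genes took between 1.16% and 6.42% of all TPM. No member was at 0 in any library. Levels between genes can be compared in TPM, which is per length: the Jonah genes were highest as a class, with single values from 3.35 to 18381 TPM, and the maltases lowest, with single values from 0.0573 to 531 TPM. Mal-B1 had a mean of 0.494 TPM and did not pass the filter of a mean of at least 1 TPM, so 38 members entered the tests. The members varied widely: the highest library of a member exceeded its lowest by 3.83-fold for etaTry, by 24.8-fold in the median member and by 4586-fold for Jon66Cii. The 2 libraries of a strain differed by over 2-fold in 27 of 38 members in WT, 23 in U12Δ/Δ, 23 in U6atacΔ/Δ and 22 in SmnΔ/Δ, while 50.3%, 49.3%, 44.0% and 49.9% of all genes tested did so. Of the 39 highest values, 22 lay in a U6atacΔ/Δ library, 11 in WT, 5 in U12Δ/Δ and 1 in SmnΔ/Δ. Of the 39 lowest, 19 lay in SmnΔ/Δ, 10 in U12Δ/Δ, 8 in WT and 2 in U6atacΔ/Δ. The same shares over all genes were not computed, so these counts are not read as particular to the members.

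**Figure D1:**
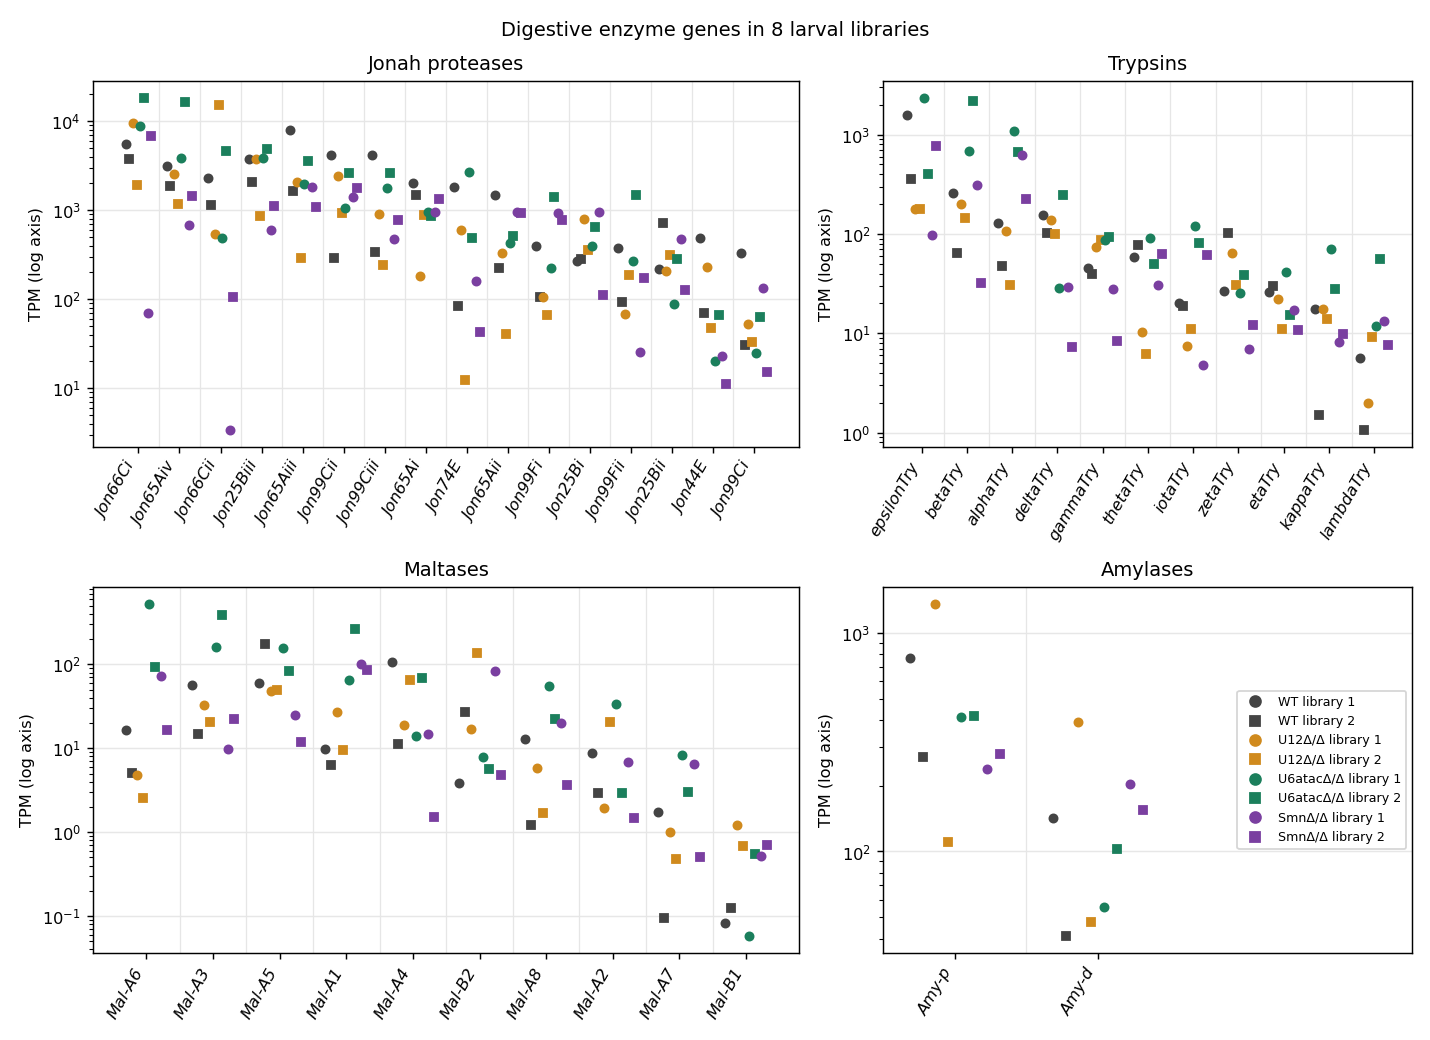
TPM (log axis) of the 39 digestive enzyme genes in each of the 8 libraries, by class and ordered by mean; colours mark the strain, circles the first and squares the second library. U6atacΔ/Δ libraries hold the highest value of 22 genes, a share not computed over all genes, and Jon66Cii spans 3.35 to 15369 TPM.

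The strains were compared with limma on log2(TPM + 1) over 11122 genes with a mean of at least 1 TPM, in one fit of all 8 libraries, with Benjamini-Hochberg adjustment over all genes. Fold changes are on this scale, which understates the change of low genes. No member passed an adjusted p of 0.05 in any of the 5 comparisons (each deletion strain against WT, and U12Δ/Δ and U6atacΔ/Δ against SmnΔ/Δ), where 1.51%, 0%, 0%, 1.31% and 1.31% of all genes passed for SmnΔ/Δ, U12Δ/Δ and U6atacΔ/Δ against WT and for U12Δ/Δ and U6atacΔ/Δ against SmnΔ/Δ. Without adjustment, 5, 1, 7, 4 and 6 members had a p under 0.05, against 13.9%, 9.44%, 10.3%, 11% and 11.6% of all genes. With 2 libraries against 2, an exact two-sided permutation test of a single gene cannot go below 0.333. Differences below are therefore described by the libraries' order and size, and a p that misses the threshold does not show that strains were alike.

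A property of the tables bears on every value. Runs of genes listed next to each other shift together within one library, whatever the genes are. Each member was therefore also given relative to the 10 nearest listed genes that are not members, called centred below. The median deviation of these neighbours reached beyond 1 on the log2 scale for 28 of the 304 member values and beyond 2 for 1 of them, Jon66Cii in the second U12Δ/Δ library. Centred log2 fold changes are given beside most of the deposited ones, and what produces the shifts was not tested. On the centred scale 2, 0, 0, 0 and 1 members passed the adjusted threshold in the same 5 comparisons, against 3.34%, 0.018%, 0%, 1.83% and 2.2% of all genes.

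As class sums, the trypsins and the maltases were higher in both U6atacΔ/Δ libraries than in both WT libraries. Summed over the 11 trypsins, the libraries were at 4606 and 3858 TPM in U6atacΔ/Δ, 2330 and 844 TPM in WT, 816 and 625 TPM in U12Δ/Δ, and 1165 and 1204 TPM in SmnΔ/Δ. The maltases summed to 1035 and 930 TPM in U6atacΔ/Δ, 276 and 245 TPM in WT, 158 and 308 TPM in U12Δ/Δ, and 341 and 149 TPM in SmnΔ/Δ. For both classes the U6atacΔ/Δ libraries lay above all 6 others, and after division of each value by its neighbours' deviation the trypsin sums still did (6094 and 3835 TPM, against 1701 TPM at most). The divided maltase sums stayed above WT (426 and 597 against 112 and 175 TPM) but not above the first SmnΔ/Δ library, at 720 TPM. The enterocyte markers, not divided in this way, summed to 318 TPM in each U6atacΔ/Δ library, against 205 and 223 TPM in WT, 137 and 754 TPM in U12Δ/Δ, and 225 and 72.4 TPM in SmnΔ/Δ, and their part in the enzyme values was not tested. In the second U12Δ/Δ library the neighbours of mex1 and GATAe deviated by 3.10 and 3.81 (log2). The markers did not move together: both U6atacΔ/Δ libraries lay above WT for mex1 and GATAe. For nub they lay below it (2.65 and 6.83 against 34.4 and 9.78 TPM), and Myo31DF overlapped. The class sums have no test. Jonah sums ran from 9681 to 58923 TPM and amylase sums from 159 to 1751 TPM, and in both classes the WT and U6atacΔ/Δ libraries overlapped. Once divided they did not, with Jonah sums of 35224 and 69039 TPM in U6atacΔ/Δ against 29880.0 and 12508 TPM in WT, and amylase sums of 690.2 and 795 TPM against 663 and 348 TPM.

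**Figure D2:**
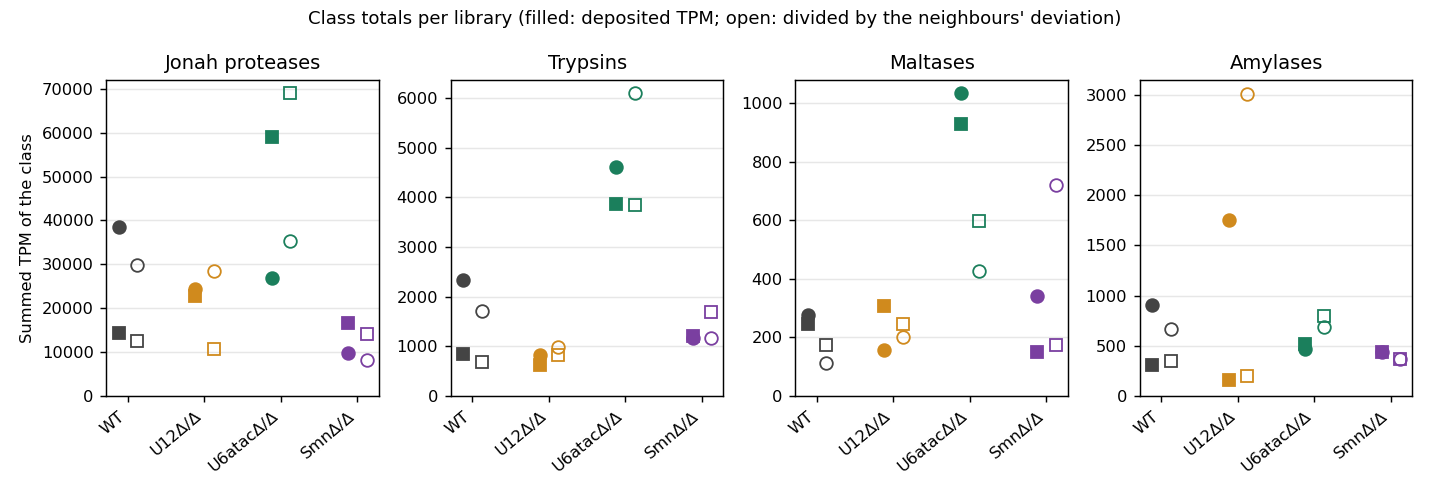
Summed TPM per class (vertical axes start at 0) for each library and strain; filled symbols are deposited TPM, open symbols have each member divided by the deviation of its listed neighbours, circles and squares are the first and second library. Trypsin sums of U6atacΔ/Δ (4606 and 3858 TPM) lie above the other 6 libraries on both scales, while the deposited amylase sums of each deletion strain overlap those of WT.

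By gene, 15 of 38 members had both U6atacΔ/Δ libraries above both WT libraries, against 11.9% of all genes tested, and 2 (Jon44E and Jon65Ai) had both below, against 33% of all genes. The 15 were 6 trypsins (alphaTry, betaTry, gammaTry, iotaTry, kappaTry and lambdaTry), 5 maltases (Mal-A1, Mal-A3, Mal-A6, Mal-A7 and Mal-A8) and 4 Jonah genes (Jon25Bi, Jon25Biii, Jon65Aiv and Jon66Ci). On the centred scale 18 members lay above and 2 below, against 21.4% and 20.9% of all genes. The members had a median log2 fold change of 0.74, beside −0.49 over all genes tested. Other scalings move that median of all genes by about its own size, to 0.05 with median-ratio scaling and −0.02 with quantile normalization, and the members' median was then 1.45 and 0.46. By class the median was 1.82 for maltases, 1.06 for trypsins and 0.61 for Jonah genes, above 0 under each of these scalings and after centring, and −0.08 for the amylases, which turned to 0.64, 0.06 and 0.47 with median-ratio scaling, quantile normalization and centring. Members of a genomic group often sit close together in the table, so they are not independent of each other.

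The trypsins differed among themselves. alphaTry stood at 129 and 47.1 TPM in WT, 106 and 30.4 TPM in U12Δ/Δ, 1094 and 668 TPM in U6atacΔ/Δ, and 616 and 227 TPM in SmnΔ/Δ. betaTry stood at 261 and 63.8 TPM in WT, 199 and 145 TPM in U12Δ/Δ, 689 and 2182 TPM in U6atacΔ/Δ, and 312 and 31.8 TPM in SmnΔ/Δ. Both trypsins were higher in each U6atacΔ/Δ library than in any WT or U12Δ/Δ library. Against WT the log2 fold change in U6atacΔ/Δ was 3.44 ± 1.22 (SE, n = 2 and 2, limma adjusted p = 0.424) for alphaTry and 3.24 ± 1.42 (limma adjusted p = 0.477) for betaTry, and neither passed the threshold. Centred, these were 4.14 and 3.51.

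epsilonTry, the trypsin with the highest mean, did not follow them. It was at 1585 and 360 TPM in WT, 176 and 180 TPM in U12Δ/Δ, 2349 and 399 TPM in U6atacΔ/Δ, and 98.0 and 765 TPM in SmnΔ/Δ, so that U6atacΔ/Δ and WT overlapped and both U12Δ/Δ libraries lay below WT. deltaTry was at 156 and 103 TPM in WT, 137 and 101 TPM in U12Δ/Δ, 28.3 and 246 TPM in U6atacΔ/Δ, and 29.6 and 7.26 TPM in SmnΔ/Δ. gammaTry was at 45.5 and 39.8 TPM in WT, 73.9 and 87.4 TPM in U12Δ/Δ, 86.1 and 94.1 TPM in U6atacΔ/Δ, and 28.1 and 8.47 TPM in SmnΔ/Δ. gammaTry thus lay above WT in all 4 minor spliceosome deletion libraries and below WT in both SmnΔ/Δ libraries. For deltaTry, SmnΔ/Δ again lay below WT, and U6atacΔ/Δ had 1 library on each side of it. The log2 fold change of deltaTry in SmnΔ/Δ against WT was −3.01 ± 1.32 (SE, n = 2 and 2, limma adjusted p = 0.353), and −2.06 centred. The other 6 trypsins ranged from 1.06 to 120 TPM. Among them thetaTry had the lowest unadjusted p of any member in U12Δ/Δ, with 10.2 and 6.26 TPM against 58.2 and 77.9 TPM in WT, a value picked out after the data were seen.

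Among the maltases, which all belong to the glucosidase family that releases glucose from maltose, the members highest on average were Mal-A6, Mal-A3, Mal-A5, Mal-A1 and Mal-A4. Mal-A6 was at 16.5 and 5.09 TPM in WT, 4.83 and 2.56 TPM in U12Δ/Δ, 531 and 94.3 TPM in U6atacΔ/Δ, and 73.3 and 16.4 TPM in SmnΔ/Δ. Mal-A3 was at 56.2 and 14.9 TPM in WT, 33.0 and 20.4 TPM in U12Δ/Δ, 162 and 384 TPM in U6atacΔ/Δ, and 9.94 and 22.3 TPM in SmnΔ/Δ. Both were higher in each U6atacΔ/Δ library than in the 6 other libraries. In U6atacΔ/Δ against WT the log2 fold change was 4.45 ± 1.25 (SE, n = 2 and 2, limma adjusted p = 0.38) for Mal-A6 and 3.05 ± 1.13 (limma adjusted p = 0.441) for Mal-A3. Centring left these at 4.48 and 2.79.

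Mal-A1, low in WT, was high in both U6atacΔ/Δ and SmnΔ/Δ. It was at 9.81 and 6.40 TPM in WT, 26.7 and 9.58 TPM in U12Δ/Δ, 65.8 and 266 TPM in U6atacΔ/Δ, and 101 and 86.0 TPM in SmnΔ/Δ. Both SmnΔ/Δ and both U6atacΔ/Δ libraries lay above all WT and U12Δ/Δ libraries, with log2 fold changes against WT of 3.40 ± 1.12 (SE, n = 2 and 2, limma adjusted p = 0.226) in SmnΔ/Δ and 3.90 ± 1.12 (limma adjusted p = 0.38) in U6atacΔ/Δ. Centred on neighbours, the SmnΔ/Δ change was 4.61 ± 1.09 and passed the threshold (limma adjusted p = 0.0326), and the U6atacΔ/Δ change was 3.64 with an adjusted p of 0.31 from limma. The SmnΔ/Δ call rests on all 4 libraries compared: it was lost without the first or the second WT library (limma adjusted p = 0.189 and 0.0849) or SmnΔ/Δ library (0.205 and 0.0957). Mal-A1 overlaps Cyp4e1 on the opposite strand.

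Mal-A5 and Mal-A4 showed no such pattern. Mal-A5 was at 60.1 and 177 TPM in WT, 48.0 and 49.0 TPM in U12Δ/Δ, 158 and 82.9 TPM in U6atacΔ/Δ, and 24.6 and 11.8 TPM in SmnΔ/Δ, where both libraries lay below WT. Centred, SmnΔ/Δ overlapped WT for Mal-A5. Mal-A4 was at 106 and 11.2 TPM in WT, 19.1 and 65.9 TPM in U12Δ/Δ, 14.0 and 68.5 TPM in U6atacΔ/Δ, and 14.8 and 1.5 TPM in SmnΔ/Δ. Every deletion strain overlaps WT for Mal-A4, whose WT libraries lie far apart. The other 5 maltases ranged from 0.0573 to 137 TPM, with the highest value, of Mal-B2, in the second U12Δ/Δ library.

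**Figure D3:**
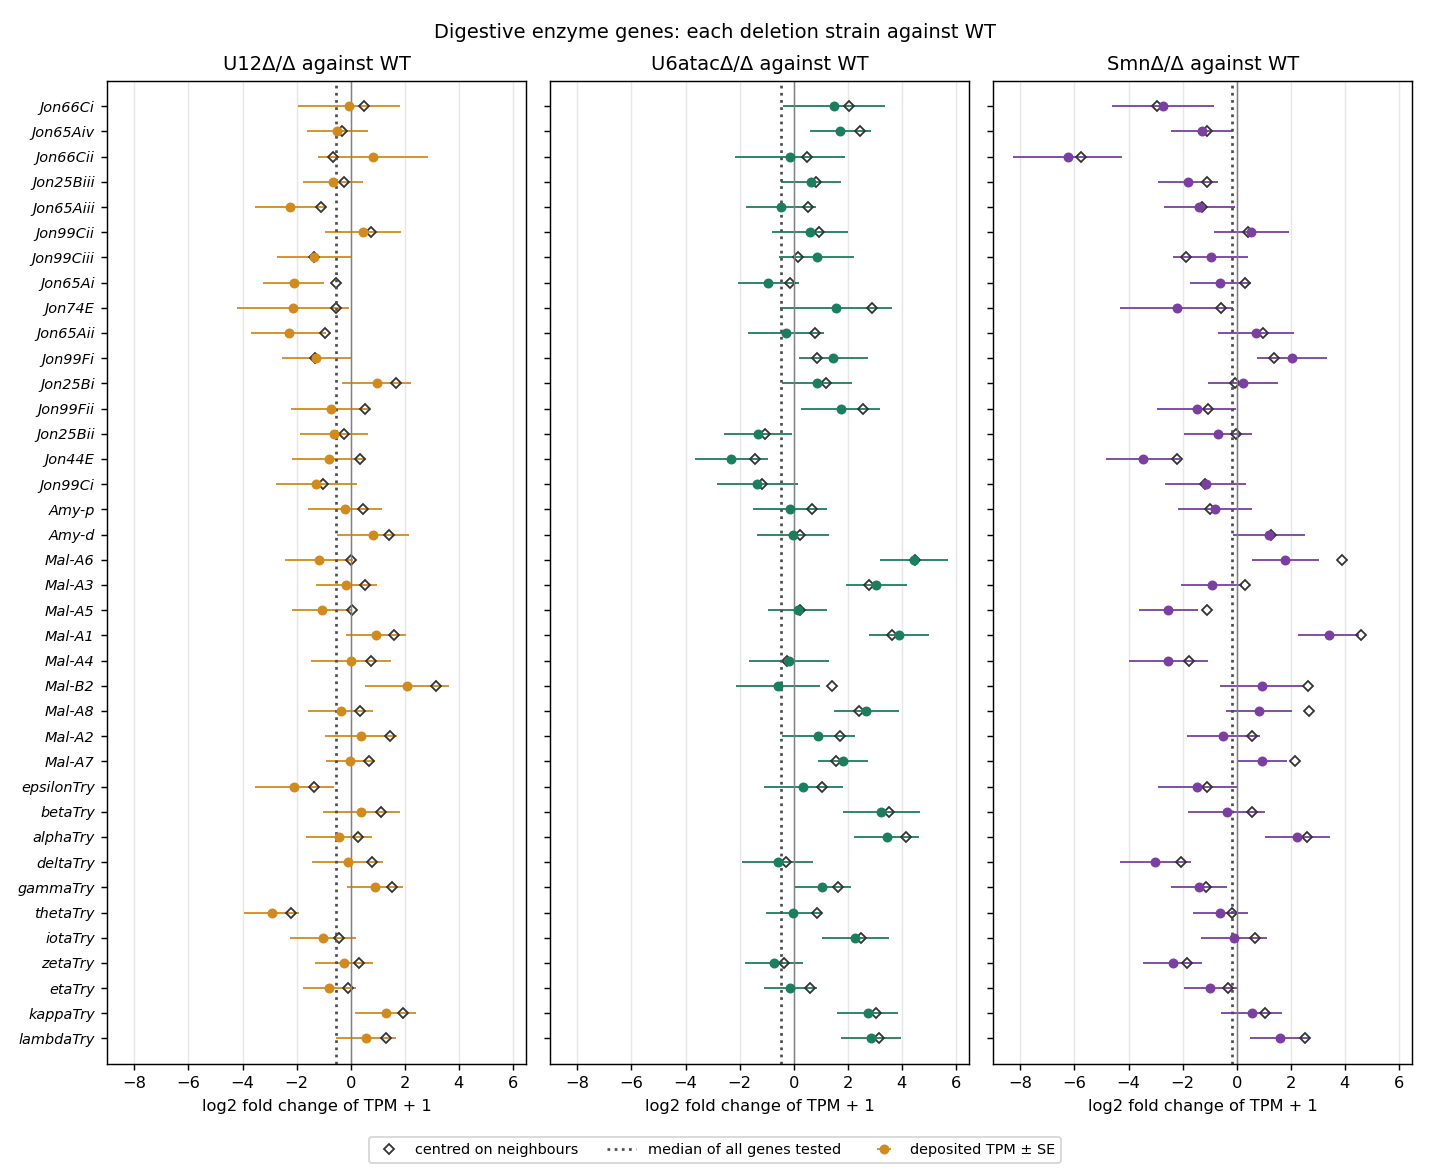
Log2 fold change of TPM + 1 of the 38 tested members in each deletion strain against WT (2 libraries each); filled circles with bars are the deposited values ± SE, open diamonds the values centred on listed neighbours, and the dotted line the median of all 11122 genes. In U6atacΔ/Δ 23 of 38 deposited values lie above 0, against 12 in U12Δ/Δ and 13 in SmnΔ/Δ, beside 34.5%, 33.8% and 45.2% of all genes tested.

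The Jonah proteases carry most of the digestive enzyme transcript and split by gene more than by class. Jon66Ci was at 5495 and 3769 TPM in WT, 9602 and 1937 TPM in U12Δ/Δ, 8742 and 18381 TPM in U6atacΔ/Δ, and 69.2 and 6759 TPM in SmnΔ/Δ. Jon65Aiv was at 3159 and 1846 TPM in WT, 2530 and 1163 TPM in U12Δ/Δ, 3826 and 16500.4 TPM in U6atacΔ/Δ, and 674 and 1457 TPM in SmnΔ/Δ. Jon25Biii was at 3808 and 2093 TPM in WT, 3756 and 863 TPM in U12Δ/Δ, 3874 and 4921 TPM in U6atacΔ/Δ, and 598 and 1101 TPM in SmnΔ/Δ. For Jon65Aiv and Jon25Biii both U6atacΔ/Δ libraries lay above WT and both SmnΔ/Δ libraries below it, and for Jon66Ci the 2 SmnΔ/Δ libraries were on opposite sides of WT. Centring kept both orders for Jon65Aiv and lost both for Jon25Biii, whose lower U6atacΔ/Δ library exceeded the higher WT library by only 3874 against 3808 TPM. The centred log2 fold changes against WT in U6atacΔ/Δ and SmnΔ/Δ were 2.44 and −1.10 for Jon65Aiv, 0.82 and −1.09 for Jon25Biii, and 2.04 and −2.93 for Jon66Ci. Jon65Aiii was at 7987 and 1664 TPM in WT, 2061 and 288 TPM in U12Δ/Δ, 1976 and 3548 TPM in U6atacΔ/Δ, and 1815 and 1078 TPM in SmnΔ/Δ, with every strain overlapping WT.

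Jon66Cii spread furthest of all members. It was at 2312 and 1152 TPM in WT, 538 and 15369 TPM in U12Δ/Δ, 484 and 4586 TPM in U6atacΔ/Δ, and 3.35 and 105 TPM in SmnΔ/Δ. Each SmnΔ/Δ library lay below all 6 others. The log2 fold change in SmnΔ/Δ against WT was −6.25 ± 2.02 (SE, n = 2 and 2, limma adjusted p = 0.219), and −5.75 ± 1.30 when centred, which passed the threshold (limma adjusted p = 0.0252). The centred call was lost without the first or the second WT library (limma adjusted p = 0.168 and 0.0968) or without the first SmnΔ/Δ library (0.21). U6atacΔ/Δ exceeded SmnΔ/Δ by 6.12 ± 2.02 on the log2 scale (limma adjusted p = 0.268), and centred by 6.25 ± 1.30 (limma adjusted p = 0.021), a call lost without the second U6atacΔ/Δ library (0.232) or the first SmnΔ/Δ library (0.183). U12Δ/Δ exceeded SmnΔ/Δ by 7.07 ± 2.02 (limma adjusted p = 0.2), and centred by 5.09 (limma adjusted p = 0.0708).

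The 15369 TPM of Jon66Cii in the second U12Δ/Δ library came with a raised stretch of the table. In that library 55 tested genes listed on 61 successive rows around it had a median deviation of 3.48 from their means over all libraries, and 54 of them were above 0. The stretch was bounded, after the values were seen, by where a running median of these same deviations was high. Its high median and the lower values on either side follow from that rule and are no test. The 20 tested genes before the stretch had a median of −0.29 and the 20 after it −1.07, and the other 7 libraries had medians of −1.0 to 0.21 within it. Jon66Ci, which lies next to Jon66Cii on chromosome 3L but 29 rows away in the table, sits outside the stretch.

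**Figure D4:**
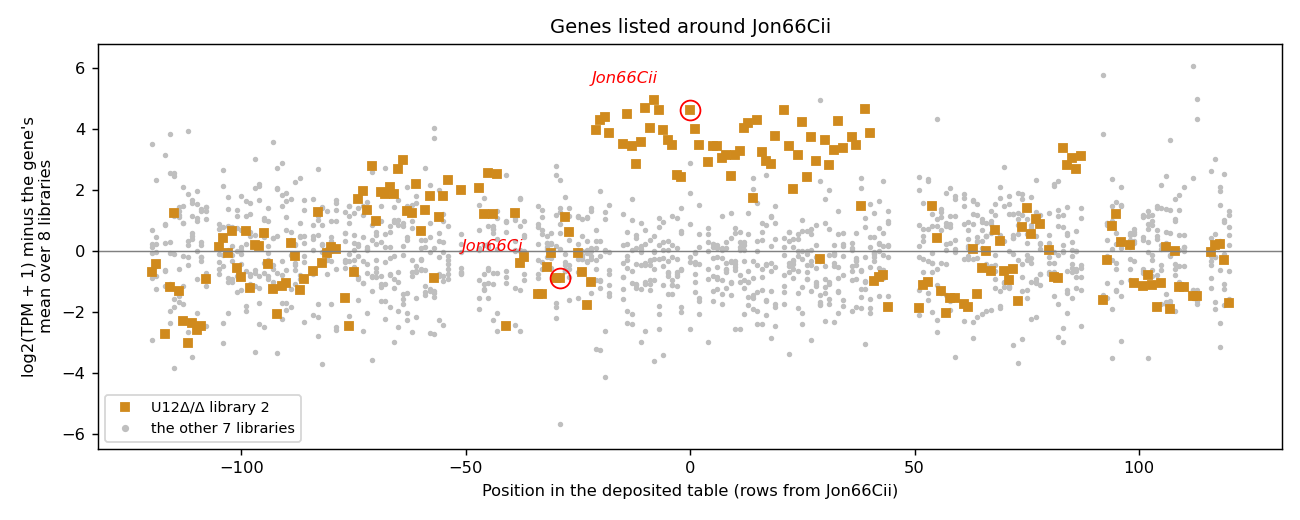
Deviation of log2(TPM + 1) from each gene's mean over the 8 libraries, for tested genes listed within 120 rows of Jon66Cii; orange squares are the second U12Δ/Δ library, grey points the other 7, and red circles mark the 2 Jonah genes. In the orange library 55 tested genes around Jon66Cii, a stretch bounded by that library's own high values, have a median deviation of 3.48, and Jon66Ci lies outside.

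Jon44E was the other Jonah gene with a change of at least 3 on the log2 scale against WT. It was at 486 and 70.5 TPM in WT, 230 and 47.6 TPM in U12Δ/Δ, 20.4 and 65.9 TPM in U6atacΔ/Δ, and 22.7 and 11.2 TPM in SmnΔ/Δ. The U6atacΔ/Δ and SmnΔ/Δ libraries all lay below WT, the former by a margin of 65.9 against 70.5 TPM. In SmnΔ/Δ the log2 fold change was −3.46 ± 1.37 (SE, n = 2 and 2, limma adjusted p = 0.309), and −2.21 centred. The remaining 10 Jonah genes ranged from 12.2 to 4197 TPM.

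The amylases, which act first on starch, overlapped between U6atacΔ/Δ and WT on the deposited scale. Amy-p was at 767 and 269 TPM in WT, 1358 and 111 TPM in U12Δ/Δ, 414 and 414 TPM in U6atacΔ/Δ, and 239 and 280 TPM in SmnΔ/Δ. Amy-d was at 143 and 40.9 TPM in WT, 393 and 47.7 TPM in U12Δ/Δ, 55.6 and 103 TPM in U6atacΔ/Δ, and 203 and 155 TPM in SmnΔ/Δ. Every deletion strain overlapped WT for Amy-p, and for Amy-d only SmnΔ/Δ did not, lying above. Centring kept these orders for Amy-d but not for Amy-p. Centred, Amy-p lay above WT in U6atacΔ/Δ and below it in SmnΔ/Δ, with log2 fold changes of 0.69 and −0.97. The 2 U12Δ/Δ libraries held both the highest and the lowest value of Amy-p.

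In SmnΔ/Δ against WT, 5 members had both libraries above (alphaTry, lambdaTry, Jon99Fi, Mal-A1 and Amy-d) and 10 had both below, against 20.4% and 25.6% of all genes tested. The 10 were Jon25Biii, Jon44E, Jon65Ai, Jon65Aiv, Jon66Cii, gammaTry, deltaTry, zetaTry, etaTry and Mal-A5. Centring turned this balance, with 10 above and 6 below, against 22.7% and 23.2% of all genes. The members' median log2 fold change was −0.75, and −0.12 centred, beside −0.18 and −0.03 over all genes. The Jonah genes had a median of −1.21 and the maltases of 0.83, and each kept its sign under both other scalings and after centring. These are the libraries that nearly lack fat body and salivary gland marker transcripts, whose part in these values was not tested.

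In U12Δ/Δ against WT, 2 members lay above (gammaTry and Jon25Bi) and 8 below (epsilonTry, thetaTry, iotaTry, etaTry, Mal-A5, Mal-A6, Jon65Ai and Jon99Fi), against 10.4% and 31.2% of all genes tested, and centred 7 lay above and 4 below, against 19% and 18.7%. The members' median of −0.41 compares with −0.53 over all genes, and it stayed below 0 with quantile normalization, at −0.22, and turned to 0.26 with median-ratio scaling and 0.31 when centred. No direction is therefore given for the digestive enzymes as a whole in U12Δ/Δ. The strains share the WT libraries, so the comparisons with WT are not independent of each other.

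Against SmnΔ/Δ, 19 of 38 members had both U6atacΔ/Δ libraries above and 3 both below, beside 1625 and 3367 of the 11122 genes tested. For U12Δ/Δ these were 8 and 7 members, beside 1436 and 3284 genes. Centred, the counts were 18 and 2 members for U6atacΔ/Δ, beside 2535 and 2487 genes. For U12Δ/Δ they were 7 and 6 members, beside 2296 and 2283 genes. The share of all genes that also differ by at least 3 on the log2 scale was not computed. U6atacΔ/Δ exceeded SmnΔ/Δ by at least 3, with no overlap, in betaTry (3.60), Mal-A3 (3.97), Jon65Aiv (3.0), Jon66Ci (4.20), Jon66Cii (6.12), Jon74E (3.78) and Jon99Fii (3.22). U12Δ/Δ lay below SmnΔ/Δ by that much in Jon99Fi, with a log2 fold change of −3.32, and in Jon65Aii, with −3.01. Centred, the U6atacΔ/Δ differences were 2.93, 2.50, 3.55, 4.97, 6.25, 3.47 and 3.62 in the same order, and those of U12Δ/Δ were −2.72 for Jon99Fi and −1.92 for Jon65Aii. Single libraries set much of these sizes: betaTry was at 1.97 without the second SmnΔ/Δ library, Jon65Aiv at 1.95 without the second U6atacΔ/Δ library, and Jon66Ci at 0.91 and Jon99Fii at 1.85 without the first SmnΔ/Δ library, while Jon65Aii came to −1.52 without the second U12Δ/Δ library. Of these only Jon66Cii passed a threshold, in the centred comparison given above. Jon74E, Jon99Fi, Jon99Fii and Jon65Aii are named because of these sizes, after their values were seen. Jon99Fi was at 391 and 106 TPM in WT, 104 and 67.2 TPM in U12Δ/Δ, 226 and 1409 TPM in U6atacΔ/Δ, and 927 and 767 TPM in SmnΔ/Δ, so that SmnΔ/Δ lay above WT and U12Δ/Δ below it, the latter by a margin of only 104.4 against 105.9 TPM.

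Beside the members, 22 other genes of digestion and the gut lumen were listed (lysozymes, lipid carriers, peritrophins, further proteases and glucosidases), of which 18 were tested. None passed the adjusted threshold in any of the 5 comparisons on the deposited scale. Their median log2 fold change was −1.09 in SmnΔ/Δ, −0.76 in U12Δ/Δ and −0.19 in U6atacΔ/Δ against WT, beside −0.18, −0.53 and −0.49 over all genes. Centred, their medians were −0.41, 0.27 and 0.79, so the sign turned in U12Δ/Δ and U6atacΔ/Δ. Bace, an aspartic protease of the gut, differed most plainly: it was at 49.0 and 5.12 TPM in WT, 1785 and 1316 TPM in U12Δ/Δ, 145 and 207 TPM in U6atacΔ/Δ, and 242 and 199 TPM in SmnΔ/Δ. All 6 deletion libraries were above WT, with a log2 fold change of 6.45 ± 1.26 in U12Δ/Δ (SE, n = 2 and 2, limma adjusted p = 0.371) and 5.64 when centred. Bace was chosen for mention after its values were seen. The lipase gene mag and the lysozyme gene LysD, 1 of a group of near-identical copies, passed only when centred, mag higher and LysD lower in U6atacΔ/Δ than in SmnΔ/Δ, and LysD lower in U12Δ/Δ than in SmnΔ/Δ.

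Of 10 genes known to act on amylase and maltase genes or on midgut identity (Mondo, bigmax, sug, daw, babo, put, Smox, srp, GATAe and cad), none passed the adjusted threshold in any comparison. In U6atacΔ/Δ against WT, daw, the TGF-beta ligand that in flies takes part in glucose repression of digestive enzymes, had a log2 fold change of −3.34 ± 1.22 (SE, n = 2 and 2, limma adjusted p = 0.438), with both U6atacΔ/Δ libraries below WT, and −2.47 when centred. It was the only 1 of the 10 with an unadjusted limma p under 0.05 there. Of the 10, 3 had both U6atacΔ/Δ libraries below WT (daw, cad at −0.92 and bigmax at −0.23), beside 33% of all genes tested. GATAe, at 0.77, had both above, beside 11.9% of all genes. babo, put and Smox of the same list differed by −0.27, −0.12 and 0.15, with overlapping libraries. Whether daw has a part in the enzyme values was not tested. Mondo and sug, transcription factors of the sugar response, differed from WT in U6atacΔ/Δ by 0.57 and −1.04 on the log2 scale (1.06 and −0.52 centred), with overlapping libraries.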

How the data were processed

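The authors filtered and trimmed paired-end reads and mapped them to dm6 with TopHat. The submitters' notes also name TopHat2 and featureCounts, with no versions. The deposited values are TPM for 17473 genes per library, and the tool that made them is not given in the sources used here. Libraries were grouped by the strain and replicate number in the labels. Strains were compared in R 4.3.3 with limma 3.58.1, with a variance trend, on log2(TPM + 1) of the 11122 genes with a mean of at least 1 TPM, in one fit of 4 groups, with Benjamini-Hochberg adjustment over all genes and a threshold of 0.05. The model and the centring were run on simulated data with known changes. The noise of single genes was set lower there than the spread between libraries here, so this does not measure power or false calls in these data.

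Members were named with the value in every library if they were among the 5 highest of their class, passed a test, or lay outside both WT libraries with a log2 fold change of at least 3. The members, lists and tests were chosen with earlier results of these data known. Introns and overlaps come from the Ensembl BDGP6 annotation, in which all 39 members have the deposited position. Markers of midgut progenitors are not analysed here. Other values were computed in Python with pandas and numpy, and plots with matplotlib.

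Alternatives tried were no filter, a pseudocount of 0.1, a mean of at least 5 TPM, median-ratio scaling, quantile normalization, only the 4 libraries compared, the replicate block, no variance trend, centring on the 10 nearest listed genes, and each library left out in turn. Centring with each library left out was added after the data were seen.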

Additional observations from a re-analysis of the deposited data

How the results depend on the processing

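Of 19 fold changes of members (at least 3 on the log2 scale, with no overlap of libraries), 323 values under 17 alternatives all kept their sign. Because they were picked for non-overlap, only median-ratio scaling, quantile normalization or centring could have turned a sign. The signs kept under the other settings were fixed by that choice and are no support. Of the 323 values, 320 stayed on the same side of the threshold. The 3 others were those that passed when centred on the 10 genes listed around: Jon66Cii and Mal-A1 in SmnΔ/Δ against WT, so that the members called went from 0 to 2, and Jon66Cii in U6atacΔ/Δ against SmnΔ/Δ, where they went from 0 to 1. The cause was not tested. Leaving out each library in turn gave 0 to 0 members called in every comparison, but moved sizes: Jon66Cii in SmnΔ/Δ against WT ran from −8.55 (without the second SmnΔ/Δ library) to −3.94 (without the first), and Mal-A6 in U6atacΔ/Δ against WT from 3.21 to 5.69. Over the 19 fold changes, the ranges for betaTry (1.97 to 5.23), Jon65Aiv (1.95 to 4.06), Jon99Fii (1.85 to 4.58) and Jon74E (2.55 to 5.01) in U6atacΔ/Δ against SmnΔ/Δ, and for Jon65Aii (−4.50 to −1.52) in U12Δ/Δ against SmnΔ/Δ, were of similar width. Jon66Ci in U6atacΔ/Δ against SmnΔ/Δ ran from 0.91 without the first SmnΔ/Δ library to 7.50 without the second, and its adjusted p over all alternatives from 0.0745 to 0.936. Centring with each library left out, a choice made after seeing the data, gave 0 to 4 members called in SmnΔ/Δ against WT, 0 to 3 in U12Δ/Δ against SmnΔ/Δ, 0 to 2 in U6atacΔ/Δ against SmnΔ/Δ, and 0 in U12Δ/Δ and U6atacΔ/Δ against WT. The highest counts were those without the second SmnΔ/Δ library, where Jon66Ci, Jon66Cii, Mal-A6 and Mal-A7 passed against WT and Mal-A1 did not. Same-numbered libraries of different strains deviated with correlations of −0.021 to 0.108 across genes, so the numbers were not taken to pair the libraries, and the replicate block left the members called at 0 in each comparison. TPM keeps no depth, so counting error at low values, such as the 3.35 TPM of Jon66Cii, is unknown.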
